A study of Caenorhabditis elegans with 2 samples.

Results

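Peaks of a tagged nuclear hormone receptor whose summits lay inside the body of autosomal protein-coding genes were described. The base set held 2058 peaks, 1627 from the conservative list made from both replicates and 431 from the other such list that overlapped none of them. From it were dropped 404 peaks on X, 277 on the dense right end of chromosome II (from position 13400000), 123 with a summit within 200 bp of a tRNA gene, and 642 in promoter windows, which reached from 200 bp inside a protein-coding transcript to 1000 bp before its 5′ end. Another 259 lay outside protein-coding genes. The remaining 353 peaks, hereafter the gene body peaks, had 163 summits in exons (116 from the conservative list) and 190 in introns (146 from it). A summit counted as exonic when it lay in an exon of any transcript of a protein-coding gene. They fell in 311 genes, and 4 of them lay inside 2 genes at once.

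Chromatin immunoprecipitation followed by sequencing (ChIP-seq) was done on whole L4 larvae of Caenorhabditis elegans aged 50 h, synchronised by L1 starvation after bleaching. There was 1 group of 2 biological replicates, all of strain OP351. The animals carried the transgene wgIs351, in which nhr-42 is fused to TY1, EGFP and 3xFLAG tags, together with unc-119(+), in an unc-119(tm4063) background, and chromatin was precipitated through GFP. The transgene is an extra, tagged copy, the chromatin came from all tissues together, and no precipitation from untagged animals was analysed here to serve as a background. Depth is unknown, because the lists hold no read counts.

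Nuclear hormone receptors are transcription factors that bind short DNA half-sites, often in promoters and enhancers. In C. elegans, promoters are compact and many introns are short, but long introns can hold regulatory elements and also small RNA genes. Small nucleolar RNAs (snoRNAs) guide modification of ribosomal RNA, small nuclear RNAs (snRNAs) act in splicing, and many snoRNA genes lie within introns of host genes. Transfer RNA (tRNA) genes are transcribed by RNA polymerase III and carry internal promoter elements called the A box and the B box.

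The strongest gene body peaks that were called in both replicates and had a snoRNA gene at hand lay in introns. The windows of 101 bp around 6 strong such summits on chromosomes III and V are shown on build ce11, 5′ to 3′ on the strand of the snoRNA gene. Capitals mark GTTCNANNC, which resembles the B box, on either strand. This pattern was chosen after the sequences had been seen.
pxn-1 (chrV:8500502-8500602, plus strand): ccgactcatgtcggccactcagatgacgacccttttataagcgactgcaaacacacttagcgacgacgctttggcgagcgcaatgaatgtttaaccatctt
frm-7 (chrV:12303587-12303687, plus strand): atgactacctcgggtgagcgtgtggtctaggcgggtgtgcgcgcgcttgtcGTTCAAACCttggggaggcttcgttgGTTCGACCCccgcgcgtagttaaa
cutl-18 (chrV:11314160-11314260, plus strand): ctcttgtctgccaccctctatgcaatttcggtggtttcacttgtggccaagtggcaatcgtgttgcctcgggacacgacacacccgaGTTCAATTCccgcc
Y43F8C.7 (chrV:19643173-19643273, minus strand): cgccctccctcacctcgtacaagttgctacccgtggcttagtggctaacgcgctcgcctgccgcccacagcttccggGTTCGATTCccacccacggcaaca
unc-41 (chrV:9970277-9970377, minus strand): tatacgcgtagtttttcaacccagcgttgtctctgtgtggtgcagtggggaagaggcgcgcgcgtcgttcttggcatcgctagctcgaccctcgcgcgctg
madf-11 (chrIII:5602159-5602259, minus strand): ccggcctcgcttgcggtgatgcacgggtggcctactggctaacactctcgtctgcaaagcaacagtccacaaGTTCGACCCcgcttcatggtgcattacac

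The pattern was present in 4 of these 6 windows and occurred in a pair of places in frm-7. The windows of pxn-1 and unc-41 did not hold it.

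Gene body peaks had lower median signals than promoter peaks and were less often called in both replicates. The signal of a peak is the authors' value and has no stated unit. Its median in the conservative list was 81.3 in exons (quartiles 73.8 and 91.2, n = 116), 92.6 in introns (81.6 and 124, n = 146) and 106.5 in promoters (84.7 and 155, n = 525). In replicate 1 the medians of the matching peaks were 39.7, 46.0 and 57.1, and in replicate 2 they were 43.3, 48.2 and 52.55. The 3 classes therefore stood in the same order in each replicate, while their quartile ranges overlapped. A peak of the replicate's own thresholded list was overlapped in both replicates by 52 of 353 gene body peaks (14.7%, exact 95% interval 11.2 to 18.9%) and by 182 of 642 promoter peaks (28.35%, 24.9 to 32.0%). Over the whole base set this share was 21.3%. The odds ratio was 0.437 (Fisher's exact test, two-sided, adjusted p = 3.180e-06 over 5 tests). Among peaks with the highest score it was 0.654, and the same exact test missed the threshold (adjusted p = 0.0559). Another 227 gene body peaks (64.3%) overlapped a thresholded peak of neither replicate, against 49.95% of the base set and 40.3% of promoter peaks. A peak in the longer ranked list of each replicate was found for 348 gene body peaks (98.6%), against 97.2% of the base set. All Fisher tests count peaks as independent, whereas peaks of 1 gene, or with shared sequence, are not.

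Exonic peaks lay lower than intronic ones by both measures, although neither difference passed in every set of peaks. Of the exonic peaks of the conservative list, 24 of 116 (20.7%) had a signal above the median of that list, against 63 of 146 intronic ones (43.2%). By construction 50.0% of that list lay above it. The odds ratio was 0.344 (Fisher's exact test, two-sided, adjusted p = 2.096e-04). Called in both replicates were 16 of 163 exonic peaks (9.82%, 5.72 to 15.45%) and 36 of 190 intronic ones (18.95%, 13.6 to 25.25%), an odds ratio of 0.466 (Fisher's exact test, two-sided, adjusted p = 0.0205). Without the peaks near small RNA genes the shares were 15 of 159 and 20 of 156, with an adjusted p of 0.498 in the same test, and for signal above the median the adjusted p was 0.0518. Among peaks with the highest score the adjusted p was 0.0802 for signal above the median (odds ratio 0.498) and 0.717 for calls in both replicates (odds ratio 0.836), and in the list of replicate 1 alone it was 0.485 for signal (odds ratio 0.667). Within the conservative list alone the adjusted p for calls in both replicates was 0.0584. Of the 16 exonic peaks, 5 lay in tos-1. Without genes with 3 or more peaks, tos-1 among them, 8 of 147 exonic peaks were called in both, and the same exact test gave an adjusted p of 3.866e-04 (odds ratio 0.248).

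**Figure D1:**
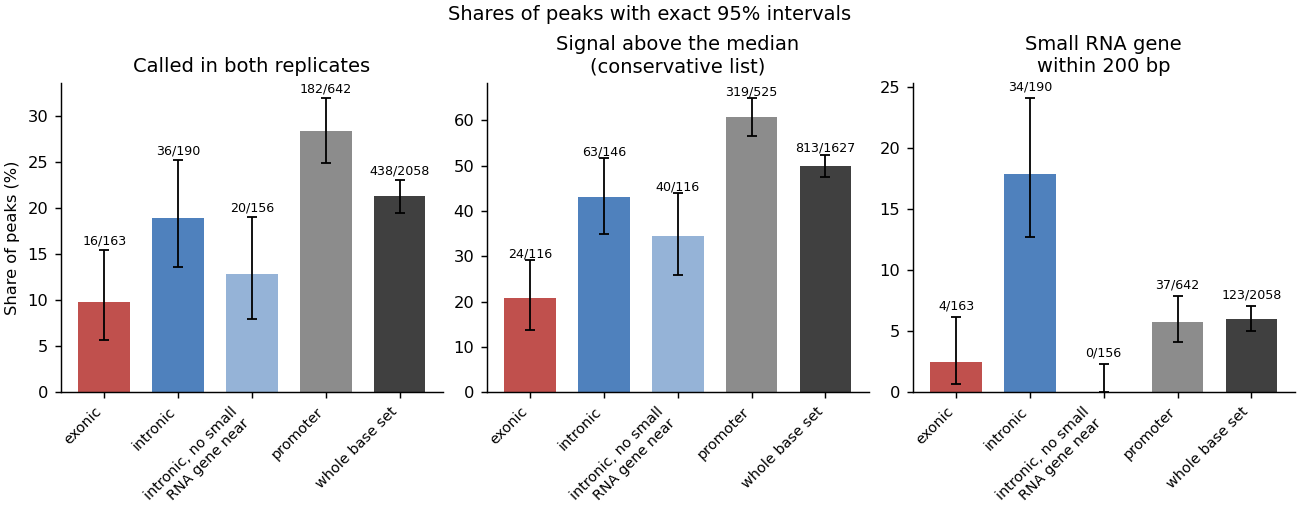
Share of peaks (%) called in both replicates, with a signal above the median of the conservative list, and with a small RNA gene within 200 bp of the summit, for exonic, intronic (all, and those with no small RNA gene near), promoter and all base set peaks. Bars are shares with their counts, and lines are exact 95% intervals, which cover counting error only. Introns without a small RNA gene near the summit had 20 of 156 peaks called in both replicates, between the exonic and the intronic share.

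Exons and introns held similar numbers of peaks per length searched, while the exonic share was below that of the ranked background by a margin that depended on the set of peaks. After the same location filters, exons offered 17.8 Mb and held 9.14 peaks per Mb, and introns offered 21.9 Mb and held 8.68 per Mb. The authors' ranked list gave a background of 44393 gene body summits below the threshold, 51.4% of them exonic, whereas 46.2% of the gene body peaks were (40.9 to 51.5%). The odds ratio was 0.810 and the difference missed the threshold (Fisher's exact test, two-sided, adjusted p = 0.0542). The same exact test passed in 11 alternatives, among them peaks with the highest score (odds ratio 0.486, adjusted p = 9.270e-05) and the list of replicate 1 alone (odds ratio 0.314, adjusted p = 1.913e-07), always with the lower share in the gene body peaks. With exons of protein-coding transcripts only, which moves the 5 tos-1 summits into the intronic class, 158 of 353 peaks were exonic and the adjusted p was 0.0161. Without peaks near small RNA genes the shares were 50.5% and 51.5%, and the same exact test gave an adjusted p of 0.735. Without repeated sequence the exonic share of the gene body peaks was 53.96%. The test was not run there, because repeats were not counted below the threshold.

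**Figure D2:**
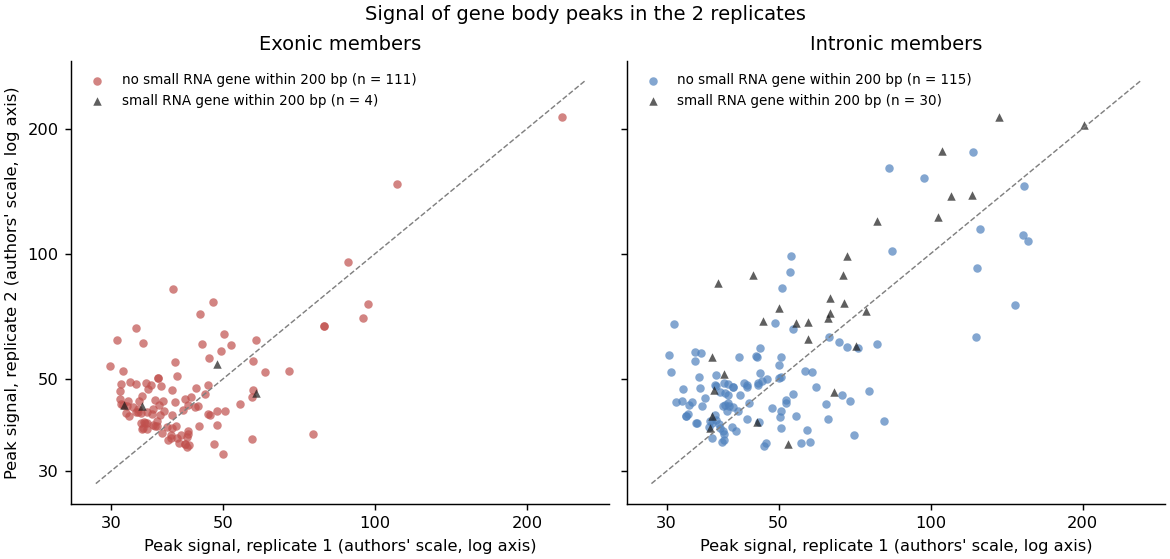
Signal in replicate 1 against signal in replicate 2 for peaks of the conservative list, exonic on the left (n = 115) and intronic on the right (n = 145), on log axes in the authors' units; the dashed line is equality and triangles are peaks within 200 bp of a small RNA gene. Most exonic peaks sit in 1 cloud at low signal, with few above it, among them C34C12.2 at 234 and 213, and more of the intronic ones lie above the cloud.

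Between the replicates, signals of the 145 intronic peaks had a Spearman correlation of 0.513 across peaks, and those of the 115 exonic peaks one of 0.164. On log2 values Pearson's r was 0.73 and 0.63. These are descriptions across peaks of the same libraries, and the threshold limits the range of both. Replicate 1 was the higher in 41 of 115 exonic and 51 of 145 intronic peaks. For 515 promoter peaks the Spearman correlation was 0.584 and Pearson's r 0.754. The median log2 ratio of replicate 1 to replicate 2 was -0.129 in exonic, -0.141 in intronic and 0.128 in promoter peaks.

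Small RNA genes lay close to many intronic summits and to few exonic ones. An annotated snoRNA, snRNA or miRNA gene lay within 200 bp of 34 of 190 intronic summits (17.9%, 12.7 to 24.1%) and of 4 of 163 exonic ones (2.45%, 0.673 to 6.16%). The odds ratio of exonic against intronic summits was 0.115 (Fisher's exact test, two-sided, adjusted p = 3.180e-06). Over the base set the share was 5.98%. It was 11.97% (31 of 259, 8.28 to 16.6%) among the peaks outside protein-coding genes, so it was not particular to introns. Among summits below the threshold the shares were 0.408% in introns and 0.219% in exons. Of the 34, the nearest gene was a snoRNA in 27, a snRNA in 5 and a miRNA in 2. In 3 of the 5, those in dhc-4, C28A5.6 and mpc-1, the snRNA gene bore the same name, R07E5.16. These 3 peaks share sequence, with medians of 3 to 20 copies, so their place is uncertain. The median copy number was 2 or more in 4 of the 34. The median signal of the 30 from the conservative list was 134 (114.5 to 169 between the quartiles), against 90.5 (79.3 to 107) for the other 116 intronic peaks of that list. Called in both replicates were 16 of 34 (47.1%, 29.8 to 64.9%) and 20 of 156 (12.8%, 8.01 to 19.1%). Genes that host a small RNA were a list chosen with earlier results of these data known: 51 of 244 with any ranked gene body summit held a gene body peak (20.9%), against 2.85% of all such genes.

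Most summits near a snoRNA gene lay just upstream of it. Of the 27, 18 lay upstream of its 5′ end, all within 100 bp of it, and 9 lay inside it or downstream. Their positions ran from 91 bp upstream (-91) to 121 bp downstream of the 5′ end, with a median of -19. The snoRNA gene had the strand of its host in 18 and the opposite one in 9. For comparison, 122 snoRNA genes are annotated in the intron sequence searched.

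**Figure D3:**
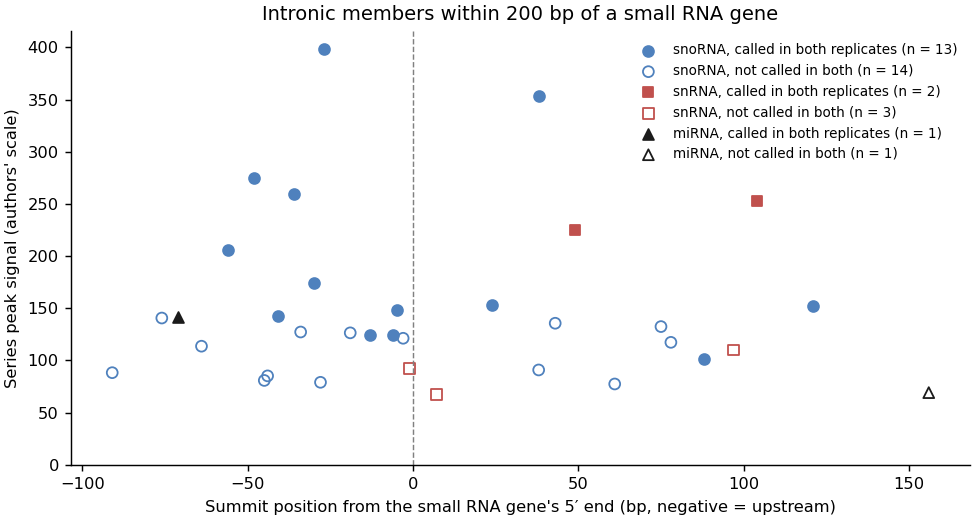
Position of the summit from the 5′ end of the small RNA gene (bp, negative is upstream) against the series signal (authors' scale) for the 34 intronic peaks within 200 bp of such a gene. Filled symbols were called in both replicates; most snoRNA summits lie between -91 and 0.

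The strongest intronic peak lay in pxn-1, which encodes a peroxidasin of the extracellular matrix. Its signal was 399 in the series list, 201 in replicate 1 and 204 in replicate 2, and its summit was 27 bp upstream of the snoRNA gene ZK994.7. The frm-7 peak had 353, with 137 and 213, and its summit lay 38 bp inside C51F7.4. In cutl-18, of a cuticlin-like family of cuticle proteins, the signal was 275 (105 and 176 in replicates 1 and 2), 48 bp upstream of T03F7.8 on the opposite strand. The Y43F8C.7 peak had 260 (121 and 139), 36 bp upstream of Y43F8C.22. Replicate 2 was the higher for all 4. Replicate 1 was the higher in 5 of the 30 such peaks of the conservative list (16.7%) and in 46 of the 115 other intronic ones (40%). In unc-41, whose product acts in synaptic vesicle recycling, the signal was 205 (78.4 and 120), and in madf-11 it was 174 (68.4 and 98.8). All 6 were called in both replicates.

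The B box-like pattern GTTCNANNC, searched on both strands within 50 bp of the summit, was in 13 of 34 windows near small RNA genes (38.2%, 22.2 to 56.4%). It was in 6 of 163 exonic windows (3.68%) and in 3.21% of the other intronic ones. Below the threshold it was in 4.48% of exonic and 3.29% of intronic windows. Among the 123 base set peaks near tRNA genes, which are not gene body peaks here, it was in 49.6%. The A box-like TGGCNNAG, also chosen after the data had been seen, was in 6 of 34 windows near small RNA genes (17.65%, 6.76 to 34.5%), in 12 of 156 other intronic windows (7.69%, 4.04 to 13.05%) and in 9 of 163 exonic ones (5.52%). It was in 15.45% of windows near tRNA genes and in 4.82% of intronic windows below the threshold. The stricter B box core GTTCGAA had been listed before the sequences were seen. It was in 0 of 34 windows near small RNA genes (0 to 10.3%), 1 of 156 other intronic windows and 1 of 163 exonic ones. Near tRNA genes GTTCGAA was in 15 of 123 windows (12.2%), and below the threshold in 1.69% of exonic and 1.18% of intronic windows.

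Some gene body peaks lay in sequence that occurs more than once in the genome, so that their place is uncertain. Of the intronic peaks 68 (35.8%) held at least 1 repeated 24-mer within 75 bp of the summit, against 20 exonic ones (12.3%). The median copy number was 2 or more in 32 and 7 of them. Repeats were counted at gene body peaks only, so no share among summits below the threshold or in the base set can be set beside these. Examples of peaks that share sequence were those in mod-5, brc-1 and B0511.11 (7 copies each), in F28F8.7 and rcor-1, and in ppfr-1 and lag-1. Their highest signals were 262.5 in mod-5, 245 in F28F8.7 and 287 in ppfr-1, each of which is thus uncertain in place. The intronic shares called in both replicates were 17.6% of 68 with repeated sequence and 19.7% of 122 without.

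Among the other strong intronic peaks, ints-8, a subunit of the Integrator complex that processes snRNA 3′ ends, had a signal of 301. It was 121.5 in replicate 1 and 176 in replicate 2, in sequence with a median of 1 copy. The peak of max-2, a p21-activated kinase, had 270.5 (156 and 108), and that of cmk-1, a calcium/calmodulin-dependent kinase, had 253 (82.9 and 161), both with a median of 2 copies. The mod-5 peak, in the serotonin reuptake transporter gene, had 262.5 (152 and 111). F58G1.7 had 253 (109.5 and 138), with its summit inside the snRNA gene sup-6 and a median of 8 copies, so its place is uncertain. None of the first 4 had a small RNA gene within 200 bp.

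Some intronic peaks shared the 9 letters GTCTGCGTC, a pattern chosen after the sequences had been seen. It was in 7 of 190 intronic windows (3.68%, 1.494 to 7.443%), in 1 exonic window, in 2.49% of promoter windows, in 0.371% of intronic and 0.0701% of exonic windows below the threshold. The 3 strongest ones called in both replicates in introns are shown, with the pattern in capitals.
epg-9 (chrIV:2602111-2602211, plus strand): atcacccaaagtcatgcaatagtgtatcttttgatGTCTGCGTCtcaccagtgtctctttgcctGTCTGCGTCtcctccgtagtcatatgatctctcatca
Y111B2A.12 (chrIII:12612613-12612713, plus strand): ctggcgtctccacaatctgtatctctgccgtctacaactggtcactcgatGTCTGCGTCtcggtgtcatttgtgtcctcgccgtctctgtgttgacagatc
Y43F8B.2 (chrV:19529328-19529428, plus strand): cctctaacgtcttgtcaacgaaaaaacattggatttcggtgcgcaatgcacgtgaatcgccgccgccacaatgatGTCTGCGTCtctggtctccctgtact

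The epg-9 peak had a signal of 232 (147 and 75.3 in replicates 1 and 2) and held the pattern in a pair of places. Y111B2A.12 had 183 (83.7 and 102) and Y43F8B.2 had 145.5 (53.0 and 98.7). The exonic one was C05D11.8, at 158. The nuclear receptor half-site AGGTCA was in 5 exonic (3.07%) and 3 intronic windows (1.58%), against 2.20% and 2.58% below the threshold. GGGCGG was in 22 of 353 windows (6.23%, 3.95 to 9.28%), against 1.94% of exonic and 2.71% of intronic windows below the threshold. It was also in 7.94% of promoter windows and 10.6% of windows near tRNA genes, so it was not particular to gene body peaks. The GC content was likewise higher in gene body windows than in those below the threshold. Its median was 47.5% in exonic and intronic gene body windows, 42.6% and 36.6% in exonic and intronic windows below the threshold, and its part in the motif shares was not tested.

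Exonic summits lay towards the 3′ end of their genes. Of the 163, 69 (42.3%) fell in the 3′-most 20% of the gene, which held 27.75% of the exon sequence searched and 26.0% of the exonic summits below the threshold. That was 13.5 peaks per Mb, against 5.725 to 7.93 in the 4 other stretches of 20%. No test was made of this difference. The intronic peaks ran from 6.81 to 9.60 per Mb over the 5 stretches, with 24 of 190 in the 3′-most. Of the 69 exonic ones, 51 lay in coding exons and 18 in 3′ UTRs, 54 were within 500 bp of the gene end, and 3 lay 1001 to 1500 bp upstream of another protein-coding 5′ end. Over all exonic peaks, 135 lay in coding exons, 19 in 3′ UTRs, 4 in other exons of coding transcripts and 5 in an exon of a non-coding transcript, all 5 in tos-1.

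**Figure D4:**
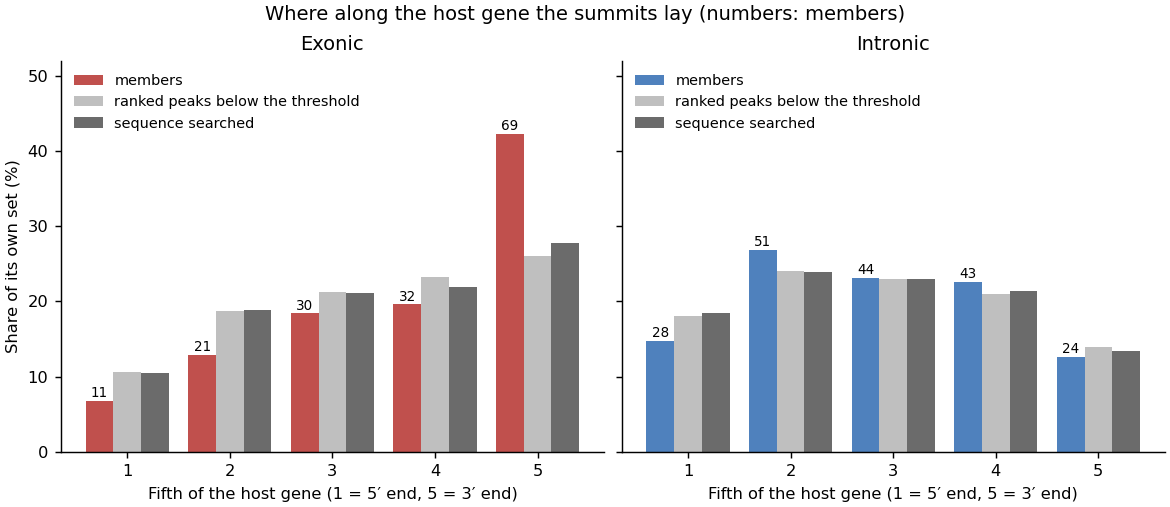
Share of each set (%) in each of 5 equal stretches of the host gene from 5′ to 3′, for exonic (left) and intronic (right) gene body peaks, ranked peaks below the threshold and the sequence searched. Numbers above the bars are gene body peaks; the 3′-most stretch of exons holds 69, above both backgrounds.

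The exonic peak with the highest signal lay in a non-coding part of a C34C12.2 exon at chrIII:3456331-3456515 (450; 234 in replicate 1 and 213 in replicate 2). In dos-3, a gene of the DOS-motif family of Notch co-ligands, a peak in the coding sequence had 269 (110.5 and 147). Both were narrower than 300 bp, and they are the only exonic peaks that were. The coding exon of dos-3 and the exon of tos-1 are shown because they are the strongest exonic windows outside untranslated regions, on the strand of the host, with no letters capitalised.
dos-3 (chrIII:835954-836054, minus strand): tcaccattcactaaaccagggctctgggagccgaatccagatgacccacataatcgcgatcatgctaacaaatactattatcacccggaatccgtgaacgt
tos-1 (chrV:9342431-9342531, minus strand): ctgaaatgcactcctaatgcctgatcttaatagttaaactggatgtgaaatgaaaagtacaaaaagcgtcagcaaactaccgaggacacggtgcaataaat

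Other exonic peaks called in both replicates reached 158 in C05D11.8 (94.5 and 69.9), 114 in gei-4 (49.6 and 58.5), 109 in F25B5.5 (60.4 and 52.01) and 105 in pals-26 (57.3 and 55.1). Apart from the 5 in tos-1 on V, 11 exonic peaks were called in both replicates, 7 of them on chromosome III. Of all 163 exonic peaks, 53 (32.5%) lay on III. The rest of the 11 were in mnk-1 on II, mec-17 on IV and rol-3 on V. All 6 genes named in this paragraph and the last besides tos-1 lie on III.

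Chromosome III held more exonic peaks per length than the other autosomes searched, at 16.8 per Mb against 5.68 to 8.605. Over exons and introns it held 13.4 per Mb against 6.92 to 8.94, and 102 of 353 gene body peaks (28.9%), against 21.03% of summits below the threshold and 20.6% of promoter peaks. These differences were not tested. The rescue gene unc-119 is on III, at 10902641 to 10908935, and its nearest base set summit lay 45617 bp away.

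Most gene body peaks, 281 of 353, were the only one in their gene. There were 20 genes with 2 gene body peaks and 10 with 3 or more, which held 36 peaks. Some pairs overlap each other, as in acs-19, F53H2.3, stdh-1, vha-19 and Y69A2AR.31, and rpoa-49 and rpt-4 overlap and hold the same pair. The gene tos-1 (chrV:9338859-9344203) held 5, all called in both replicates and all in the 4558-bp exon of a non-coding transcript. Their series signals were 181, 169, 150, 114 and 24.4, at 1722, 3634, 1151, 2196 and 950 bp from the gene start. The last one overlaps its neighbour, so both match the same replicate peaks (79.3 and 67.0). A promoter peak of tos-1 had 303.5. The peaks at 1722 and 2196 bp lie in sequence with a median of 2 copies, so their place is uncertain. In gei-4 there were 4 exonic peaks and 1 intronic, from 66.5 to 114, with 1 called in both replicates. In mnk-1, a MAP kinase-interacting kinase, signals were 92.9, 87.01, 102 and 59.5, the first pair exonic and called in both. W06H8.6 held 4 peaks from 54.65 to 111.7, none called in both.

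**Figure D5:**
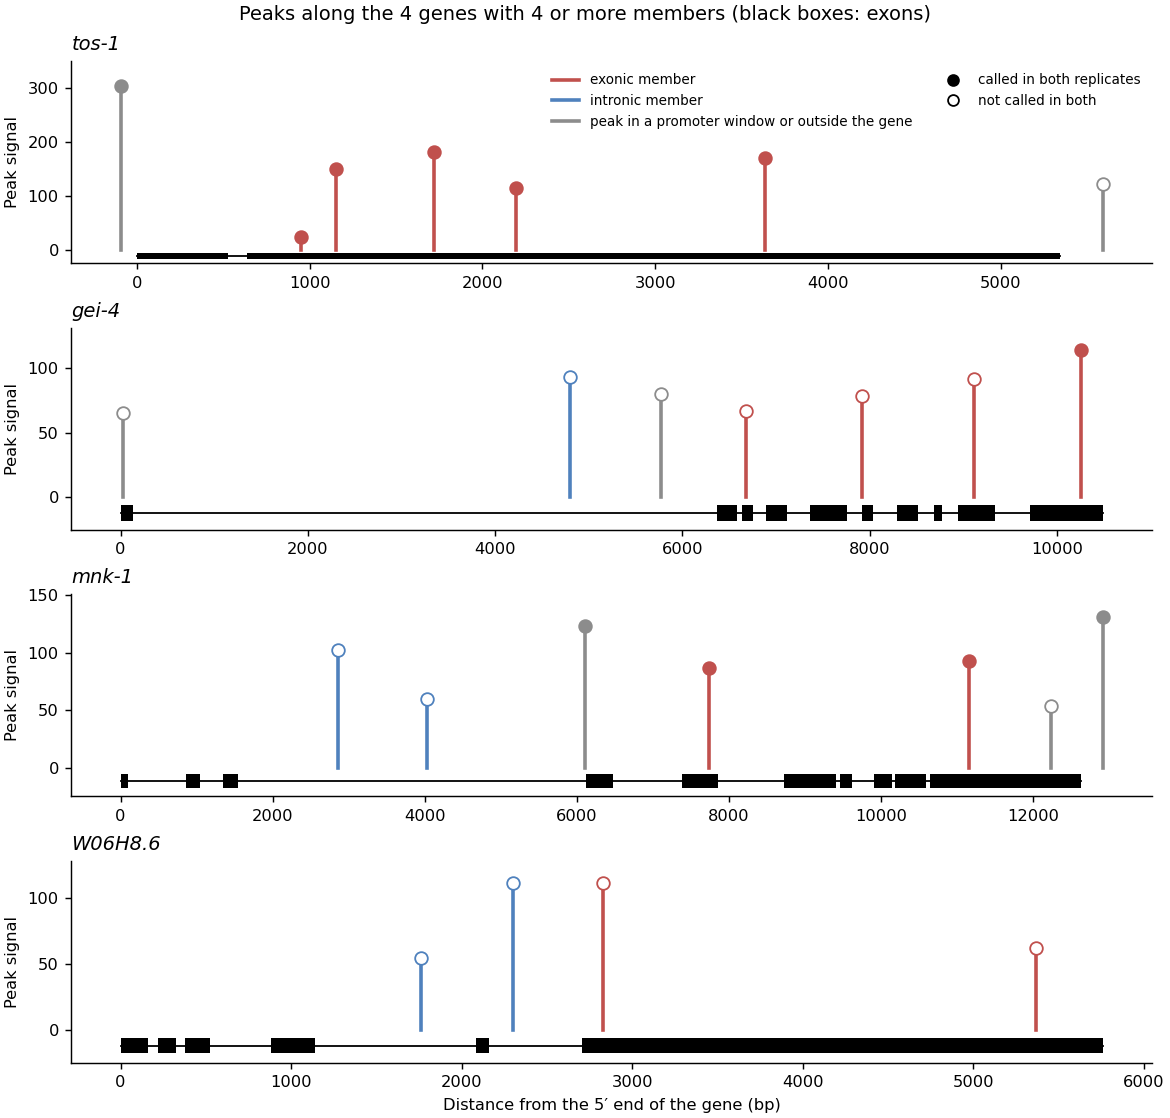
Series signal (authors' scale) of base set peaks along tos-1, gei-4, mnk-1 and W06H8.6, by distance from the 5′ end of the gene (bp). Red and blue are exonic and intronic gene body peaks of the gene shown, and grey are peaks in a promoter window or outside that gene. The grey peak at 5593 bp in the tos-1 panel is an exonic gene body peak of coq-6. Filled circles were called in both replicates and boxes are exons of any transcript. All 5 tos-1 gene body peaks are filled.

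The 6 other genes with 3 peaks had signals from 67.7 to 287. They were lin-42, the period homologue of the heterochronic pathway (137, 90.3 and 67.7, all intronic), icl-1, the glyoxylate cycle enzyme (79.6, 78.0 and 73.6, all exonic), ppfr-1, a regulatory subunit of protein phosphatase 4, pqn-41, Y43F8B.2 and Y48C3A.5. In lin-42 only the first was called in both replicates, and in icl-1 none was.

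Most gene families held few gene body peaks, with shares on both sides of the 2.85% of all genes. Counts below are genes with a peak among genes with any ranked gene body summit. Cuticle collagens had 7 of 105 (6.67%), 6 of them exonic. The strongest was in an intron of col-72 (136; 78.2 and 60.6), followed by the exons of col-39 (92.3) and col-90 (84.1). Ion channels had 5 of 98 (5.10%). They were led by twk-5, a potassium channel gene whose peak (152.5) lay at a snoRNA gene. Next was glr-2, a glutamate receptor gene (110, near a spliced leader RNA gene annotated as sls-2.16). Nuclear hormone receptors had 3 of 192 (1.56%), nhr-19 (128), nhr-46 (106) and nhr-66 (85.3). Other transcription factors had 4 of 55 (7.27%), lipid metabolism genes 3 of 64 (4.69%) and ribosomal protein genes 1 of 21 (4.76%). Splicing and RNA binding genes had 2 of 33 (6.06%), translation factors and tRNA synthetases 1 of 40 (2.5%) and heterochronic genes 1 of 6. Chemoreceptors had 4 of 690 (0.58%) and C-type lectins 1 of 174 (0.575%). Chaperones (40), homeobox genes (52) and F-box genes (199) had none. Of tissue marker genes, 3 of 8 of the hypodermis held an exonic peak (mlt-10 at 86.98, col-10 at 75.3, rol-6 at 67.7), none of these called in both replicates. The col-10 peak has a median of 3 copies, so its place is uncertain. Both col-10 and rol-6 are also counted among the cuticle collagens above. Neurons had 1 of 15 (unc-104 at 83.7), and body muscle (14), intestine (9), germline (19) and pharynx (4) had none. The lists are short and were not tested.

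The gene of the tagged receptor, nhr-42 (chrV:6998819-7000651), held no ranked peak, and its nearest base set summit lay 109787 bp away. In unc-119, 5 ranked peaks lay inside the gene, the highest with a signal of 53.5 and below the threshold.

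Some gene body peaks lay close to the edges of the rule. Summits 1001 to 1500 bp upstream of a protein-coding 5′ end numbered 47 and those 201 to 500 bp downstream of one 40, whereas 218 peaks with a summit inside a gene were counted as promoter peaks. A signal below the median of the ranked list (24.25) was found for 10 gene body peaks, 9 of which overlap a stronger base set peak. From the other series list, the strongest gene body peaks lay in pqn-41 (119.4; 55.4 and 31.7), suro-1 (115; 15.8 and 63.7) and glr-2 (110; 27.8 and 79.96).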

How the data were processed

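Anti-GFP ChIP-seq of 2 biological replicates was deposited as peak lists on build ce11, made with the irreproducible discovery rate (IDR) procedure, per the descriptions deposited with them. Chromatin was sheared to 200 to 800 bp, per the labels' protocols. The deposited score of a peak is a scaled IDR value capped at 1000, and the deposited signal is the authors' own peak value with no stated unit. Which aligner and peak caller were used is not given in the sources used here. Thresholded and ranked lists were used: they held 1627 (conservative), 1789 (other), 875 (replicate 1) and 702 (replicate 2) thresholded peaks, and up to 105959 ranked ones.

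From these, summits were placed on Ensembl release 115 genes (WBcel235, the same assembly as ce11). A peak was called in a replicate if it overlapped a thresholded peak of that replicate by at least 1 bp, and its replicate signal is that of the overlapping ranked peak with the nearest summit. Ranked gene body summits that overlap no base set peak and pass the same location filters served as the background. Sequences are from the RefSeq genome of this build. Repeats were 24-mers within 75 bp of the summit that occur again in the genome, and motif windows were 101 bp. There were 5 two-sided Fisher's exact tests, adjusted by Benjamini-Hochberg, and exact (Clopper-Pearson) 95% intervals, computed with scipy 1.17.1 under Python 3.11.15 (pandas 2.3.3, numpy 2.4.6; plots with matplotlib 3.10.9). Intervals cover counting error only. Named genes were hosts of the 10 strongest exonic and 10 strongest intronic peaks called in both replicates, the 3 strongest from the other list, genes with several peaks, and the strongest of each gene list. The members and lists were chosen with earlier results of these data known. Placement was tested on simulated peaks. Alternatives were other base lists, promoter windows, transcripts, thresholds, single replicates and subsets of peaks.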

Additional observations from a re-analysis of the deposited data

How the results depend on the processing

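Of 109 recomputed values, 85 kept direction and side of the threshold (counts within 1.5 times, shares within their interval). Another 11 newly passed it, 7 no longer did and 6 moved. None of those run reversed. Without repeated sequence, the comparisons with summits below the threshold and with promoter peaks were not run, because repeats were counted at gene body peaks only. There were 353 gene body peaks, 150 at the highest score alone, 101 with the list of replicate 1 alone and about 1.0e+02 with that of replicate 2 alone. The exonic share, 46.2%, was 34% at the highest score, 53.96% without repeated sequence, and 25.7 to 43.3% with a single replicate. The odds ratio of exonic summits against those below the threshold, 0.810, passed with the conservative list (0.75), the other list (0.743), the 500-bp promoter window (0.757), the longest transcript (0.748), the highest score (0.486), the other ranked list (0.802), without chromosome III (0.706), without weak peaks (0.797), with coding transcripts only (0.7705) and with a single replicate (0.314 to 0.6665). The exon against intron odds ratio for signal above the median, 0.344, missed the threshold at the highest score (0.498), without peaks near small RNA genes (0.491) and in 1 of the single-replicate lists (0.195 to 0.667). That for calls in both replicates, 0.466, missed it with the conservative list (0.527), at the highest score (0.836) and without peaks near small RNA genes (0.708), and the promoter comparison, 0.437, missed it at the highest score (0.654). The small RNA difference passed in every alternative run. Smaller sets hold fewer peaks; other causes were not tested. Calls in both replicates cannot be computed from 1 replicate. Leaving out chromosome III, repeats, peaks near small RNA genes, weak peaks or genes with 3 or more peaks, and using coding transcripts only, were chosen after seeing the data. No paired analysis was possible because there was only 1 group. Depth is unknown, and no control precipitation was analysed here.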
